A study of Mus musculus with 19 samples.

Results

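The 30 genes described here encode the contractile apparatus of heart muscle: the thick filament and M band, the thin filament, the Z-disc, and proteins that sit beside them in the cardiomyocyte. They were chosen by name, as a list of cardiac sarcomere and Z-disc genes, out of the 25239 gene symbols in the count table. Earlier results of these data were known when the list was chosen. All 30 passed the filter on low counts that left 14301 tested genes. Their counts came from 19 RNA sequencing libraries of mouse heart, in a study of the DNA helicase gene Mcm8 and Kawasaki disease, a vasculitis of childhood. Mice were given LCWE, a bacterial cell wall extract that inflames the coronary arteries, or PBS, a salt solution that served as control. Wild-type hearts given PBS made up 5 libraries and wild-type hearts given LCWE 6. Mcm8 knockout hearts given PBS made up 3 libraries and knockout hearts given LCWE 5. All libraries were of heart tissue, with no part of the heart named, and the sources used here do not give strain, age, sex, dose, time after treatment or the type of knockout allele. Whether each library came from its own mouse is not stated either, and the spread behind every p-value is that between libraries, which may be technical.

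In the sarcomere, myosin motors of the thick filament pull on actin of the thin filament. Calcium starts the pull by binding the troponin complex, which with tropomyosin otherwise covers the sites on actin that myosin needs. Neighbouring sarcomeres meet at the Z-disc, where alpha-actinin crosslinks thin filaments and a set of scaffold proteins links the lattice to the membrane and senses load, while titin spans from Z-disc to M band as a spring. Mutations in many of these genes cause inherited cardiomyopathy in people.

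Levels are given as CPM, library-scaled counts with TMM factors, and differences as log2 fold changes ± the standard error of the fit. A gene is said to rise or fall only where its adjusted p (Benjamini-Hochberg over 14301 genes, edgeR quasi-likelihood test) was under 0.05. The libraries held 11853233 to 16145911 counts. Myh6, the adult cardiac myosin gene that defines the tissue, lay between 37077 and 61448 CPM in every library. Mcm8, the check of the genotype labels, lay between 0.130 and 0.910 CPM in the 8 knockout libraries and between 2.60 and 5.19 CPM in the 11 wild-type libraries. It fell by 2.3 on the log2 scale under PBS (adjusted p = 0.0316) and by 3.4 under LCWE (adjusted p = 5.12e-05).

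Some libraries stood apart from the rest. In 4 knockout libraries (PBS replicates 1 and 3, LCWE replicates 4 and 5) Myh7, the slow and fetal cardiac myosin gene, lay between 13251 and 20424 CPM, against 464 to 3216 CPM in the other 15 libraries. Xist, the RNA of X inactivation, lay between 171 and 250 CPM in 13 libraries and at no more than 1.95 CPM in the other 6. The 13 were 5 of 5 wild-type PBS, 5 of 6 wild-type LCWE, 2 of 3 knockout PBS and 1 of 5 knockout LCWE libraries. Ddx3y, a gene of the Y chromosome, lay between 39.8 and 60.4 CPM in 5 of the 6 libraries low in Xist. It reached at most 0.681 CPM in the 13. Knockout LCWE replicate 2 was low in both, with Xist at 0.649 and Ddx3y at 0.454 CPM. Rn45s, a ribosomal RNA precursor, lay between 1257 and 2374 CPM in wild-type LCWE replicates 1, 2 and 3 and between 437 and 740 CPM in the other 16. Sample numbers in the labels fall into ranges (under 100, 100 to under 200, 200 and above), and the labels do not say what the numbers stand for. Values without the 4 libraries with high Myh7, without the 3 with high Rn45s, within 1 range of sample numbers or with Xist as covariate are given beside some of the results. Elsewhere the part of these divisions was not tested.

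Most of the 30 genes were abundant. In wild-type PBS hearts they ran from 14291 CPM for Mb to 0.860 CPM for Tnni1, and together they took 10.8% ± 0.313 (SD, n = 5) of all counts. The share was 9.34% ± 0.734 (n = 3) in knockout PBS, 11.7% ± 0.670 (n = 6) in wild-type LCWE and 10.9% ± 0.691 (n = 5) in knockout LCWE hearts. Levels per kilobase of exonic length take reads to cover all annotated exons of a gene evenly, which was not tested. On that scale the highest levels in wild-type PBS were those of Mb (10078 CPM per kb), Tnnt2 (8582), Actc1 (8533), Myl2 (7779) and Myl3 (7297). The lowest were those of Tnni1 (0.675 CPM per kb) and Myot (11.1). In bulk tissue, fewer cardiomyocytes and less RNA of a gene per cardiomyocyte cannot be told apart.

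**Figure D1:**
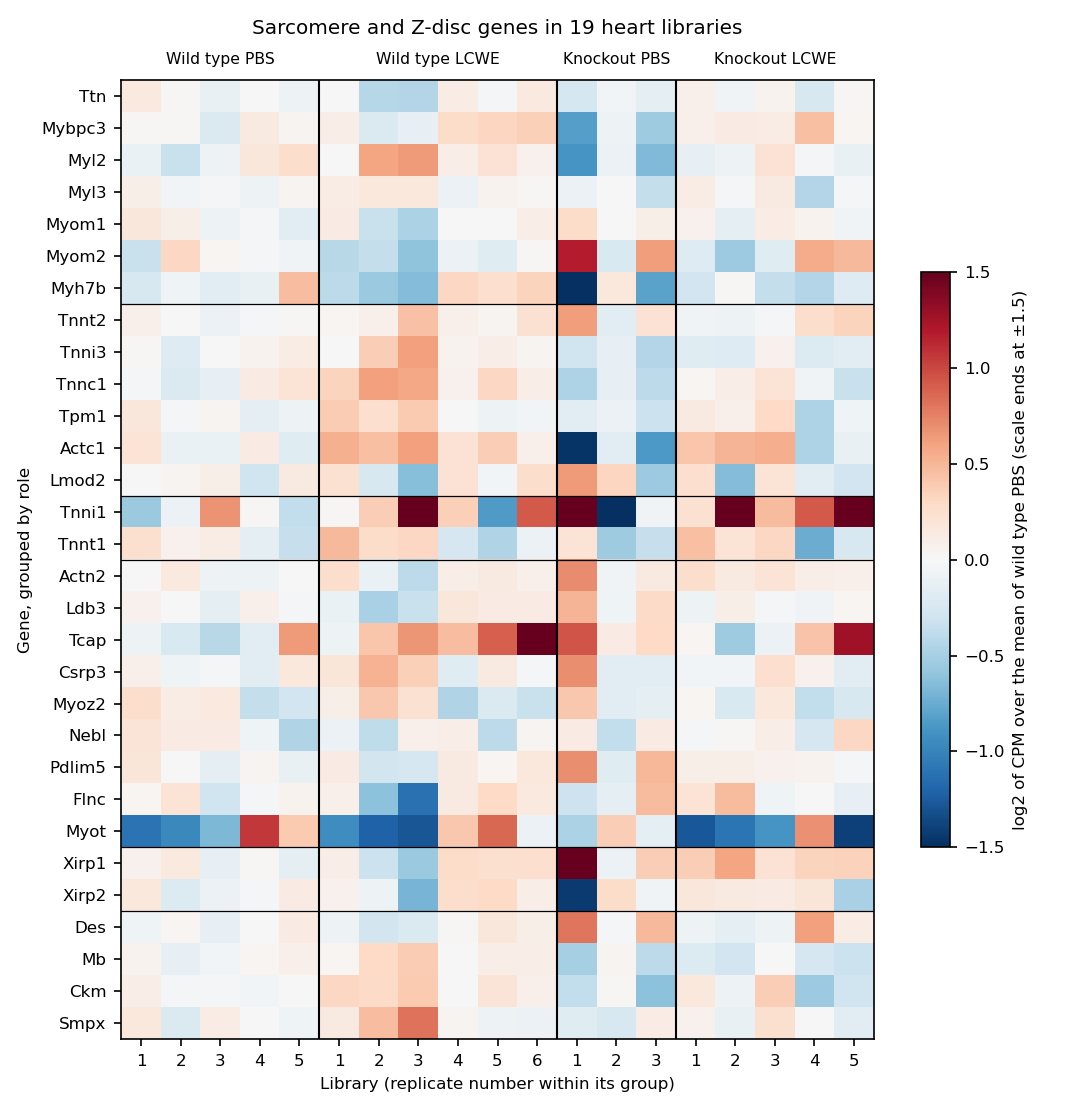
Log2 ratio of CPM to the mean of wild-type PBS for the 30 genes (rows, grouped by role) in the 19 libraries (columns, by group and replicate), with colours ending at ±1.5. Knockout PBS replicate 1 departs most visibly, with Actc1, Mybpc3, Myl2, Myh7b and Xirp2 blue and Myom2, Xirp1 and Des red.

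After LCWE in wild-type hearts none of the 30 genes was called by edgeR. The background was 0% (0 of 14301 genes) for this comparison, and 2 of the 30 had an unadjusted p under 0.05, against 6.24% of all tested genes. DESeq2, limma-voom and limma-voom with library weights also called 0 of the 30. The median log2 fold change of the 30 was 0.05, beside 0.01 for all tested genes. In knockout hearts LCWE raised 1 of the 30, Actc1, where the background was 2.9% (415 genes), and 6 of 30 had an unadjusted p under 0.05, against 23.4%. The median of the 30 was 0.07, beside 0.01 for all genes. The 1 call of 30 is a share near the background. In wild type the PBS and LCWE groups overlapped for all 30 genes, beside 0.699% of all genes whose groups did not.

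The knockout differed from wild type under PBS in 0 of the 30 genes at the adjusted threshold, beside a background of 0.601% (86 genes). The groups overlapped in all 30 genes, beside 7.72% of all genes whose groups did not. The count was 8 of 30 at an unadjusted p under 0.05, beside 19.7%. DESeq2 and limma-voom with library weights each called 1 of the 30, Actc1, and limma-voom called 0. Under LCWE the knockout differed from wild type in 0 of 30, beside 0.00699% (1 gene, Mcm8), and in 3 of 30 at an unadjusted p under 0.05, beside 5.55%. The test of the interaction, whether LCWE acted differently in the 2 genotypes, called 0 of the 30, beside 0%, with 1 of 30 against 8.01% at an unadjusted p under 0.05. DESeq2, limma-voom and its weighted form called 0 of the 30 in these last comparisons too. The medians of the 30 were -0.03, -0.07 and -0.08, beside 0.00, 0.00 and -0.02 for all genes. The comparison of knockout with wild type under PBS and that of LCWE with PBS in the knockout share the 3 knockout PBS libraries, so a gene that is high in those libraries is raised in the first and lowered in the second.

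**Figure D2:**
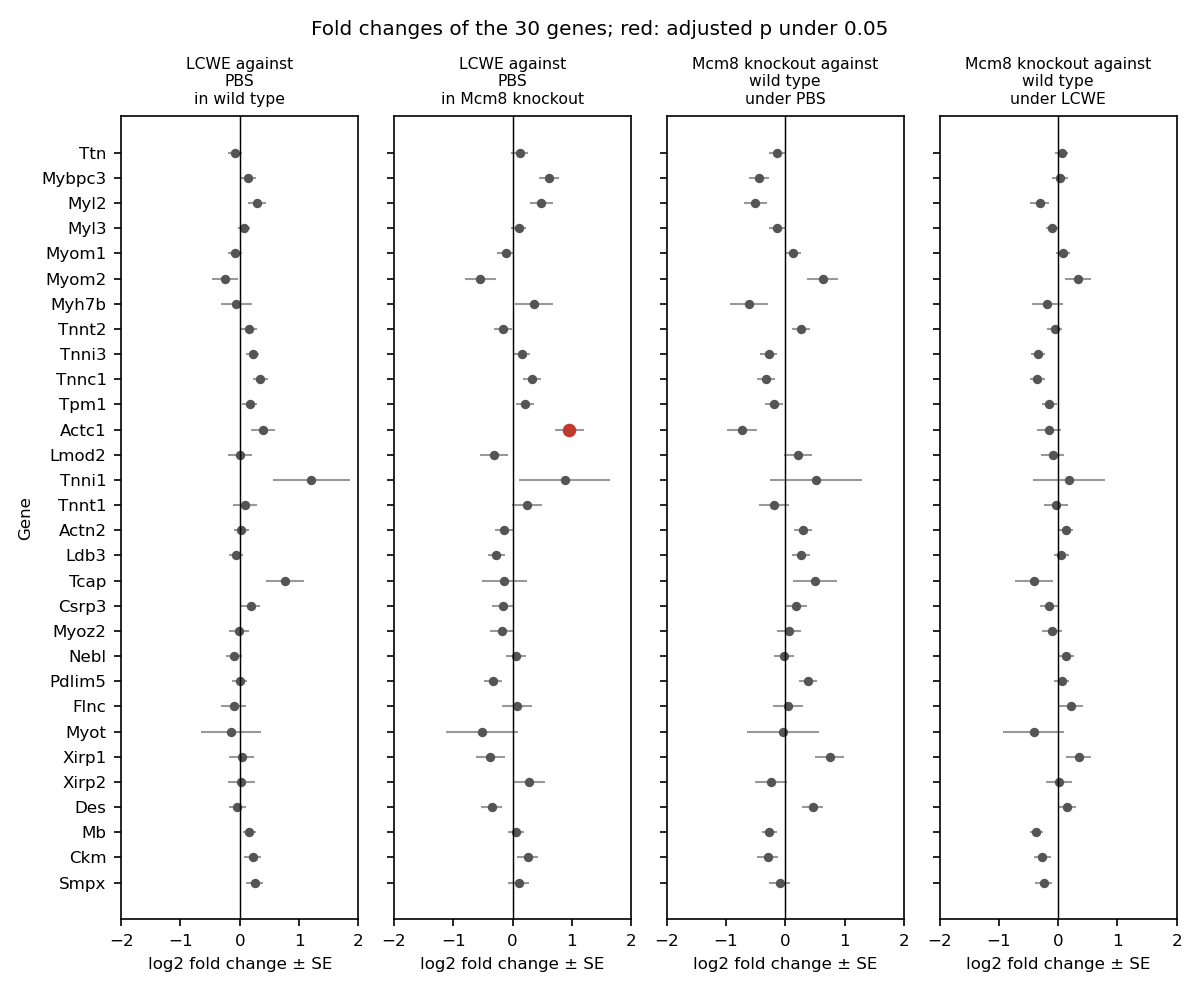
Log2 fold change (horizontal axis) ± SE of each of the 30 genes (rows) in the 4 pairwise comparisons, from the fit over all 19 libraries. Actc1 in knockout hearts after LCWE, at 0.96, is the single red point with an adjusted p under 0.05.

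The thin filament held the 1 call. Actc1 encodes cardiac alpha-actin, the actin of the thin filament in heart muscle. It lay at 4530, 11278 and 6921 CPM in the 3 knockout PBS libraries and at 16718, 17918, 18380, 9091 and 11632 CPM in the 5 knockout LCWE libraries. The groups overlapped, since PBS replicate 2 lay above LCWE replicate 4, while the other 4 LCWE libraries lay above all 3 PBS libraries. Actc1 rose by 0.96 ± 0.25 (adjusted p = 0.0444). In wild type it lay at 14509, 11766, 11771, 13717 and 11083 CPM after PBS. After LCWE it lay at 18260, 17229, 19308, 14626, 16205 and 13247 CPM (median 16717), a difference of 0.39 ± 0.20 (adjusted p = 0.772). Knockout PBS stood 0.73 ± 0.25 below wild-type PBS on the log2 scale (-0.73, adjusted p = 0.124), and the interaction was 0.57 ± 0.32 (adjusted p = 0.653).

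The call on Actc1 depended on single libraries and on the settings. The 3 lowest libraries of the knockout PBS and LCWE groups together, at 4530, 6921 and 9091 CPM, were all among the 4 with high Myh7, and the fourth of these, LCWE replicate 5, was the lowest of the rest in its group. Without those 4 the difference after LCWE was 0.64 ± 0.22 (adjusted p = 0.878). None of the 30 genes was then called in any of the 5 comparisons, beside 0.0135% of all genes after LCWE in the knockout, 0.0474% for knockout against wild type under PBS, 0.00677% under LCWE and 0% in the other comparisons. That fit leaves 1 knockout PBS library, which is assumed to vary like the other groups. The call was kept in 5 of the 19 fits that leave out 1 library and lost in 14. It was lost without knockout PBS replicate 1 (0.70 ± 0.25, adjusted p = 0.324) or 3 (0.90 ± 0.29, adjusted p = 0.129). The same held without knockout LCWE replicate 1, 2, 3 or 5 (0.87 to 1.03, adjusted p from 0.0632 to 0.0866). Leaving out any of the 5 wild-type PBS libraries, or wild-type LCWE replicate 1, 4 or 5, lost it too. There the difference stayed at 0.95 to 0.96, with adjusted p from 0.0511 to 0.0573. Wild-type libraries enter this comparison only through the filter, the scaling, the shared estimate of spread and the correction over all genes. With the Xist level as covariate the difference was 0.94 ± 0.30 (adjusted p = 0.0577), so the call was lost, and 2 of the 3 knockout PBS but 1 of the 5 knockout LCWE libraries were high in Xist. Without the 3 libraries with high Rn45s it was kept at 0.95 ± 0.26 (adjusted p = 0.0434). Mybpc3 was then called too (0.60 ± 0.14, adjusted p = 0.0289), and these 2 of 30 stood beside 6.59% of all genes, with 0 of 30 in the other comparisons, beside 0.00705% under LCWE and 0% elsewhere. Of the 12 other planned settings, 6 kept it and 6 lost it, and over all alternatives the difference stayed above 0, from 0.64 to 1.96, with adjusted p from 4.30e-05 to 0.878.

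The other thin filament genes were not called. Tnnc1 encodes troponin C, the calcium sensor of the complex. It lay at 3063, 2672, 2862, 3374 and 3577 CPM in wild-type PBS and between 3253 and 4746 CPM (median 3883) in wild-type LCWE hearts, 0.35 ± 0.13 apart (adjusted p = 0.772). In the knockout it lay at 2251, 2852 and 2360 CPM after PBS and at 3180, 3340, 3578, 2990 and 2466 CPM after LCWE. The knockout stood at -0.35 ± 0.13 against wild type under LCWE (adjusted p = 0.833) and at -0.32 ± 0.15 under PBS (adjusted p = 0.253). All of these groups overlapped. Tnni3, the inhibitory troponin of adult heart, lay between 6063 and 9234 CPM (median 6371) in wild-type LCWE and at 5321, 5284, 6330, 5251 and 5415 CPM in knockout LCWE hearts, a difference of -0.34 ± 0.12 (adjusted p = 0.804). There 4 of the 5 knockout libraries lay below every wild-type library.

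Tnnt2, the tropomyosin-binding troponin of heart, lay at 16691, 9624 and 12568 CPM in knockout PBS and at 10428, 10273, 10718, 13004 and 13708 CPM in knockout LCWE hearts. Among the knockout libraries its 4 highest values were those of the 4 with high Myh7, while wild type ran from 10190 to 14691 CPM. Its interaction was -0.31 ± 0.20 (adjusted p = 0.703), and -0.03 ± 0.20 without those 4. Tpm1, alpha-tropomyosin, ranged from 8666 to 15708 CPM over all libraries with group differences between -0.19 and 0.21. Lmod2, leiomodin, which sets the length of thin filaments, ranged from 399 to 974 CPM, with differences between -0.31 and 0.22.

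The thick filament genes Mybpc3 and Myl2 followed Actc1 in the order of p in the knockout. Mybpc3 encodes cardiac myosin-binding protein C, a brake on the myosin heads. It lay at 3387, 5690 and 4128 CPM after PBS and at 6290, 6499, 6467, 8192 and 6137 CPM after LCWE. All 5 LCWE libraries lay above all 3 PBS libraries, which no other gene of the 30 did in this comparison, beside 8.61% of all tested genes whose groups did not overlap. The difference was 0.61 ± 0.17 (adjusted p = 0.0532) and missed the threshold. In wild type Mybpc3 lay at 6059, 6042, 5147, 6562 and 6141 CPM after PBS and between 5149 and 7687 CPM (median 6845) after LCWE, 0.14 ± 0.14 apart. Its interaction, 0.47 ± 0.22, had the smallest p of the 30 (adjusted p = 0.600). Without the 4 libraries with high Myh7, the difference in the knockout was 0.17 ± 0.22 and the interaction 0.04 ± 0.25.

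Myl2 encodes the ventricular regulatory light chain of myosin. It lay at 5231, 9109 and 6129 CPM in knockout PBS and at 8844, 9180, 11226, 9534 and 8924 CPM in knockout LCWE hearts, 0.48 ± 0.19 apart (adjusted p = 0.138). Against wild-type PBS, at 8994, 7657, 9202, 10864 and 11629 CPM, knockout PBS stood at -0.50 ± 0.19 (adjusted p = 0.160). The low values were PBS replicates 1 and 3, and replicate 2 lay within the range of wild type. Without the 4 libraries with high Myh7 the values were 0.09 ± 0.28 and -0.09 ± 0.26. Myl3, the essential light chain, was the steadiest of the 30 genes within groups (SD 0.15 on the log2 scale, lower in 13.9% of tested genes). It ranged from 5724 to 8699 CPM, and differences lay between -0.14 and 0.11.

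**Figure D3:**
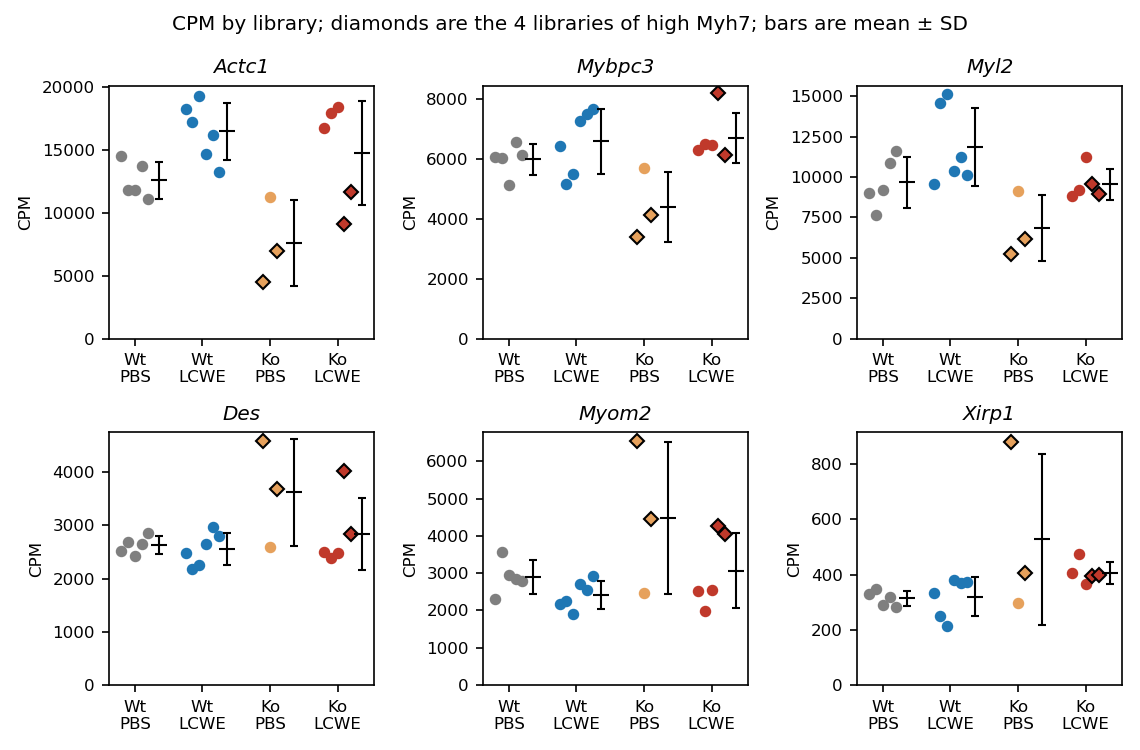
CPM (vertical axes, from 0) of 6 genes in each library by group, with the mean ± SD of the group beside the points and the 4 libraries with high Myh7 drawn as diamonds. In knockout PBS hearts the circle, replicate 2, sits above both diamonds for Actc1, Mybpc3 and Myl2 and below both for Des, Myom2 and Xirp1.

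The upstream sequences of 3 of these genes are shown because Actc1 carried the call, Mybpc3 had groups that did not overlap and Myl3 varied least. Each line gives the 250 bases before the transcript start in RefSeq on GRCm38.p6, on the strand of the gene. By the gene positions of GENCODE M21, the stretches of Actc1 and Myl3 lie inside the gene, and that of Mybpc3 lies directly before it. Capitals mark a CArG box, the site of serum response factor, in Actc1 (chr2:114052876-114053125, minus strand, beginning 47 bases before the start) and Myl3 (chr9:110763428-110763677, plus strand, 85 bases before). In Mybpc3 they mark a MEF2 box (chr2:91117894-91118143, plus strand, 90 bases before), the site of myocyte enhancer factors.
Actc1: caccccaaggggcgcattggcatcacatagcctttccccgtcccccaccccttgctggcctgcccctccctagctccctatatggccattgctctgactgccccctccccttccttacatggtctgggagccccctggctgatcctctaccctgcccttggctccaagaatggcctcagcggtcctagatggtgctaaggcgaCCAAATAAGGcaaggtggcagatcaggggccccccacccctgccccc
Mybpc3: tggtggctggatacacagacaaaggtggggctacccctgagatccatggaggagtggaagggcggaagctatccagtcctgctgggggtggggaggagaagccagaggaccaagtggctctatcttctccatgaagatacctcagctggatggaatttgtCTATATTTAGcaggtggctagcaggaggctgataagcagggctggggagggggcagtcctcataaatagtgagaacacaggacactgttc
Myl3: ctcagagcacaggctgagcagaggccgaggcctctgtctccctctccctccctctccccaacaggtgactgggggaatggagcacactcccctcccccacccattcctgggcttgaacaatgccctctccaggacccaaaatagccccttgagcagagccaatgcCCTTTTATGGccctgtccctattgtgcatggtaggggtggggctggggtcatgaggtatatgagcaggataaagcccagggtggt
RefSeq listed 38 promoters for 26 of the 30 genes, out of 32851 in all, and motifs were searched on both strands in the same 250 bases. A CArG box was found in 6 of the 38 (15.8%, beside 1.47% of all promoters), those of Actc1, Myl3, Myom1, Ldb3 and Nebl. The promoters listed for Ldb3 overlap, and the same box was counted in each of them. A MEF2 box was found in 4 (10.5%, beside 2.92%), those of Mybpc3, Ttn, Myoz2 and Xirp2. TATAAA was found in 3 (7.89%, beside 12.4%), CATTCC, the M-CAT site, in 6 (15.8%, beside 12.6%), GATAAG in 3 (7.89%, beside 6.55%) and the E-box CANNTG in 29 (76.3%, beside 66.2%). A match describes the letters only, and several of these promoters belong to 1 gene.

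Genes of the M band and of titin gave no call. Ttn, the titin spring, lay between 2618 and 3928 CPM in all libraries, with an interaction of 0.20 ± 0.18 and a difference of -0.08 ± 0.11 after LCWE in wild type. Myom1, myomesin, which crosslinks thick filaments at the M band, ranged from 1244 to 2090 CPM, with -0.08 ± 0.11 in the same comparison. Myom2, its paralogue of fast and adult muscle, lay at 6539, 2458 and 4455 CPM in knockout PBS and at 2523, 1979, 2545, 4265 and 4040 CPM in knockout LCWE hearts. Its 4 high values were those of the 4 libraries with high Myh7, and wild type ran from 1904 to 3572 CPM. Myom2 stood 0.63 ± 0.26 above wild type under PBS (adjusted p = 0.187) and at -0.55 ± 0.26 after LCWE in the knockout (adjusted p = 0.213). Without the 4 libraries these values were -0.24 ± 0.25 and -0.07 ± 0.26. Its difference after LCWE in wild type was -0.25 ± 0.22, and knockout stood 0.34 ± 0.22 from wild type under LCWE (adjusted p = 0.902), which became -0.04 ± 0.16 without the 4. Myh7b, a slow myosin heavy chain gene that also hosts a microRNA, lay at 105, 409 and 211 CPM in knockout PBS hearts, and the highest, replicate 2 at 409 CPM, lay within the range of the other groups, 235 to 507 CPM.

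Among Z-disc genes none was called. Actn2, the alpha-actinin of heart, ranged from 1967 to 4196 CPM, with its highest value in knockout PBS replicate 1. Its differences lay between -0.14 and 0.30. Pdlim5, a PDZ and LIM domain adaptor that binds alpha-actinin, lay at 843, 461 and 737 CPM in knockout PBS and at 556, 554, 547, 540 and 514 CPM in knockout LCWE hearts. It stood 0.39 ± 0.15 above wild type under PBS (adjusted p = 0.174) and at -0.33 ± 0.15 after LCWE (adjusted p = 0.204). PBS replicates 1 and 3 were the high ones, and without the 4 libraries with high Myh7 both signs turned, to -0.18 ± 0.19 and 0.25 ± 0.20. Its interaction was -0.33 ± 0.20 (adjusted p = 0.690). Ldb3, also called Cypher, followed at 0.26 ± 0.15 under PBS and -0.27 ± 0.15 after LCWE.

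Tcap, or telethonin, caps the end of titin at the Z-disc. It lay at 948, 859, 754, 889 and 1563 CPM in wild-type PBS and between 947 and 3107 CPM (median 1482) in wild-type LCWE hearts, 0.77 ± 0.32 apart (adjusted p = 0.772). The groups overlapped, and wild-type PBS replicate 5 lay well above the other 4 of its group. In knockout hearts it lay at 1930, 1089 and 1231 CPM after PBS and at 1025, 693, 940, 1345 and 2424 CPM after LCWE, and the interaction was -0.91 ± 0.49 (adjusted p = 0.647). Csrp3, muscle LIM protein, ranged from 1373 to 2533 CPM. Myoz2, calsarcin, ranged from 836 to 1513 CPM, Nebl, nebulette, from 171 to 289 CPM and Flnc, filamin C, from 261 to 788 CPM, and the differences of these 4 lay between -0.17 and 0.21.

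Xirp1 and Xirp2 encode Xin repeat proteins that bind actin at the intercalated disc. Xirp1 had the smallest p of the 30 genes for knockout against wild type under PBS. It lay at 881, 296 and 404 CPM in the knockout and at 329, 348, 289, 319 and 284 CPM in wild type, 0.75 ± 0.25 apart (adjusted p = 0.112). Replicate 1 was above all other libraries, which reached 474 CPM, and without it the difference was 0.16 on the log2 scale. Under LCWE the knockout stood 0.35 ± 0.21 above wild type (adjusted p = 0.901). Xirp2 in that same library was the lowest of all, at 114 CPM, against 373 and 295 CPM in replicates 2 and 3.

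Among the genes beside the sarcomere, Mb gave the only groups that did not overlap between genotypes. Mb encodes myoglobin, the oxygen store of muscle. It lay at 12373, 11678, 14212, 11963 and 11464 CPM in knockout LCWE and between 14310 and 18661 CPM (median 15318) in wild-type LCWE hearts. All 5 knockout libraries lay below all 6 of wild type, beside 0.531% of all tested genes whose groups did not overlap. The difference was -0.37 ± 0.11, the smallest p of the 30 in this comparison, and failed the correction (adjusted p = 0.800). Without the 4 libraries with high Myh7 it was -0.32 ± 0.11 (adjusted p = 0.596, with a range from 0.120 to 0.9998 over all alternatives). Under PBS the knockout libraries lay at 10090, 14688 and 10848 CPM, and replicate 2 lay within wild type, 13103 to 15079 CPM.

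Des encodes desmin, the intermediate filament that ties Z-discs together. It lay at 4587, 2588 and 3692 CPM in knockout PBS and at 2499, 2379, 2490, 4019 and 2831 CPM in knockout LCWE hearts. The 4 libraries with high Myh7 were the 4 highest of the knockout. Des stood 0.46 ± 0.18 above wild type under PBS (adjusted p = 0.158) and -0.02 ± 0.18 from it without those 4 libraries. After LCWE in the knockout the difference was -0.35 ± 0.18 (adjusted p = 0.237), and against wild type under LCWE it was 0.15 ± 0.15 (adjusted p = 0.941), which turned to -0.06 ± 0.12 without the 4. Ckm, the muscle creatine kinase, lay between 1171 and 1454 CPM in the 4 and between 1698 and 2307 CPM in the other knockout libraries. Smpx, a small muscle protein of the X chromosome, ranged from 184 to 383 CPM, and its highest values were wild-type LCWE replicates 3 and 2.

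Over the 8 knockout libraries, 4 of the 30 genes were higher in all 4 libraries with high Myh7 than in the other 4: Tnnt2, Myom2, Tcap and Des. Another 2, Myl3 and Ckm, were lower, and 24 overlapped. Of all tested genes 4% were higher and 5.75% lower in all 4, so the count of lower genes is a share near the background. These libraries were told apart by their Myh7 level after it was seen and they span both treatments, so no test is given. In knockout PBS hearts 2 of the 3 libraries were of this kind, and replicate 2 was not. Leaving out replicate 2 gave 10 called genes of the 30 for knockout against wild type under PBS, beside 17.9% of all genes (2606 of 14528). Of these, Pdlim5 (0.60), Des (0.66), Tnnt2 (0.43), Myom2 (0.93) and Xirp1 (1.04) were higher and Mb (-0.45), Mybpc3 (-0.67), Myl2 (-0.77), Actc1 (-1.13) and Myh7b (-1.22) lower in the knockout. The same fit gave 7 called genes after LCWE in the knockout, beside 20.2% of all genes: Actc1 (1.36), Myh7b (0.97), Mybpc3 (0.84) and Myl2 (0.75) higher, and Myom2 (-0.84), Pdlim5 (-0.55) and Des (-0.54) lower. Leaving out replicate 1 or replicate 3 in its place gave 0 of the 30 in both comparisons, beside 0% and 0% under PBS and 0.0069% and 0.392% after LCWE.

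The slow skeletal troponin isoforms, which fetal heart also makes, were rare. Tnni1 made up 0.0144% ± 0.00529 of troponin I counts (Tnni1 and Tnni3 together) in wild-type PBS, 0.0255% ± 0.0247 in knockout PBS, 0.0259% ± 0.0250 in wild-type LCWE and 0.0416% ± 0.0290 in knockout LCWE hearts (SD, n = 5, 3, 6 and 5). These shares rest on 4 to 82 Tnni1 counts per library. Tnnt1 made up 0.201% ± 0.0307, 0.148% ± 0.0104, 0.193% ± 0.0510 and 0.203% ± 0.0806 of troponin T counts (Tnnt1 and Tnnt2) in the same order. In 8 two-sided exact permutation tests, the Tnnt1 share in knockout against wild-type PBS hearts had p = 0.0357, the smallest that 5 against 3 libraries allow, and an adjusted p of 0.286. The other 7 had exact p from 0.351 to 0.797 and adjusted p from 0.714 to 0.797. Tnni3 and Tnnt1 lie 1.9 kb apart on chromosome 7 and Tnnt2 and Tnni1 25.4 kb apart on chromosome 1, so each minor isoform neighbours an abundant troponin gene.

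Differences in wild-type hearts after LCWE were ordered by exonic length. Of the 13 genes with under 1500 bases of exon, 12 lay above 0 (median 0.22), and of the 10 with 5000 bases or more, 2 did (median -0.07). The same held for all tested genes, of which 82.9% of the short and 24.8% of the long lay above 0. For knockout against wild type under LCWE the order turned, with 1 of the 13 short and 9 of the 10 long genes above 0, beside 25.5% and 71.2% of all genes. The ratio of counts of the short to the long genes was 5.85 ± 0.518 (SD, n = 5) in wild-type PBS, 7.74 ± 2.35 (n = 6) in wild-type LCWE, 4.44 ± 1.24 (n = 3) in knockout PBS and 5.78 ± 0.729 (n = 5) in knockout LCWE hearts. It was highest in wild-type LCWE replicates 2 (9.83) and 3 (11.5), followed by replicate 1 (6.87), and these are the 3 libraries with high Rn45s. It was lowest in knockout PBS replicates 1 (3.57) and 3 (3.89) and knockout LCWE replicate 4 (4.91), all among those with high Myh7. The other library with high Myh7, knockout LCWE replicate 5, lay at 5.17, above wild-type PBS replicate 2 (4.97). Knockout PBS replicate 2 lay at 5.86.

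The order by length was not seen without those 3 libraries. After LCWE in wild type 8 of the 13 short and 8 of the 10 long genes then lay above 0, beside 55.6% and 45.1% of all genes. For knockout against wild type under LCWE 5 of the 13 and 3 of the 10 did, beside 55.99% and 50.3%. Without them the difference after LCWE in wild type was 0.16 ± 0.13 for Tnnc1 and 0.22 ± 0.25 for Actc1, smaller than with all libraries, and 1.08 ± 0.38 for Tcap, larger. Knockout against wild type under LCWE was then -0.17 ± 0.13 for Tnnc1, -0.20 ± 0.10 for Tnni3 and -0.29 ± 0.11 for Mb. None of these was called with or without the 3 libraries.

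**Figure D4:**
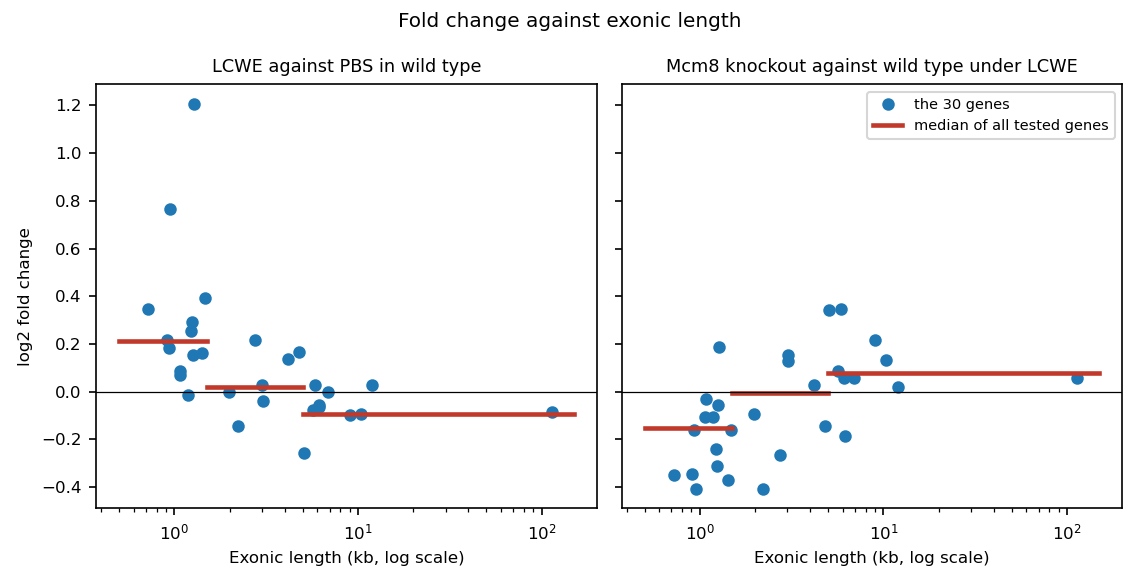
Log2 fold change (vertical axis) against exonic length in kb (horizontal axis, log scale) for the 30 genes, with the median of all tested genes in each of 3 length classes as red lines. Short genes lie mostly above 0 after LCWE in wild type (left) and below 0 for knockout against wild type under LCWE (right) in the fit over all libraries, as the lines for all genes do.

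Levels by range of the sample number are given as a description, with no test. Myot, the Z-disc protein myotilin, had the largest spread within groups (SD 0.81 on the log2 scale). It lay between 10.03 and 51.0 CPM (median 12.6) in the 11 libraries numbered 100 to under 200, between 9.30 and 44.5 CPM (median 31.7) in the 5 under 100 and between 22.1 and 32.3 CPM in the 3 at 200 or above, ranges that overlap. Tnnt1 lay between 19.8 and 30.7 CPM in the 11, between 13.1 and 20.5 CPM in the 5 and between 17.2 and 18.4 CPM in the 3. Tcap lay between 693 and 1930 CPM (median 947) in the 11 and between 1089 and 3107 CPM (median 1865) in the 5, which overlap as well. Restricting the fit to the 11 libraries, of which 4 were wild-type PBS and 3 wild-type LCWE, called 3 of the 30 after LCWE in wild type, beside 8.28% of all genes. Tnnc1 (0.54 ± 0.12, adjusted p = 0.0224) and Actc1 (0.47 ± 0.11, adjusted p = 0.0294) were higher and Myh7b (-0.42 ± 0.12, adjusted p = 0.0475) was lower, and over the alternatives their adjusted p ran up to 0.99995 for Tnnc1 and Actc1. After LCWE in wild type all 13 short genes lay above 0 in that range and none of the 10 long ones did, beside 81.4% and 19.5% of all genes. The 3 wild-type LCWE libraries in that range were replicates 1, 2 and 3, those with high Rn45s. The results after LCWE in wild type within the range therefore rest on these libraries. The same fit has 1 knockout PBS library, replicate 1, which stood apart and is assumed to vary like the other groups. It called 14 of the 30 after LCWE in the knockout, beside 27.1% of all genes, 14 for knockout against wild type under PBS, beside 27%, 9 for the interaction, beside 15.1%, and 0 for knockout against wild type under LCWE, beside 0%. The calls in the first 3 of these comparisons rest on that 1 library.

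**Figure D5:**
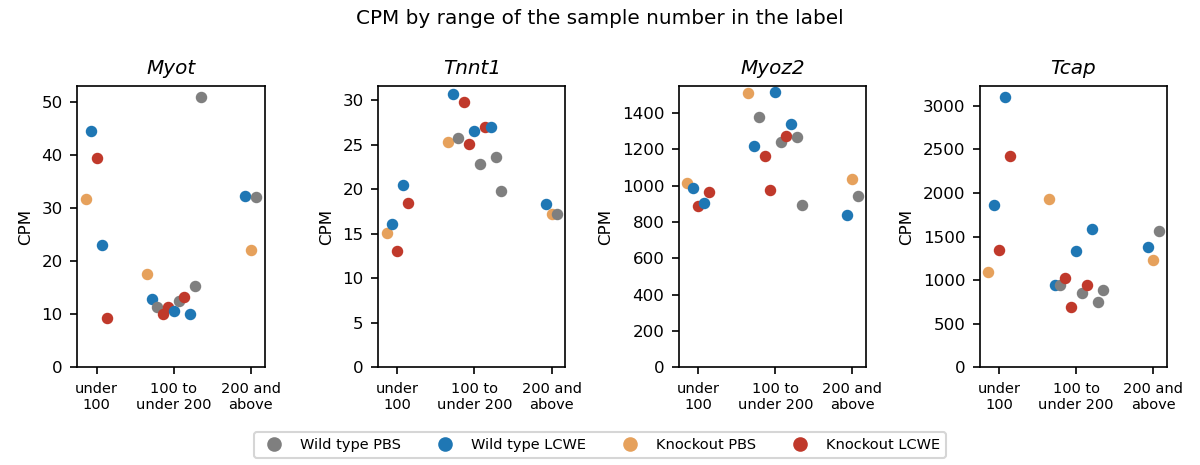
CPM (vertical axes, from 0) of Myot, Tnnt1, Myoz2 and Tcap in each library, by the range of the sample number in its label and coloured by group. For Tnnt1 the libraries numbered 100 to under 200 lie between 19.8 and 30.7 CPM, and the other 8 libraries lie between 13.1 and 20.5 CPM.

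Of 50 further sarcomere genes, 48 were tested, and 2 were called after LCWE in the knockout, a share near the background of 2.9%, and 0 in the other 4 comparisons. Synpo2l, an actin-bundling Z-disc protein, rose by 0.83 ± 0.22 (adjusted p = 0.0466), and Bag3, a co-chaperone that clears damaged Z-disc proteins, fell by 1.02 ± 0.24 (adjusted p = 0.0346). Bag3 lay at 666, 271 and 411 CPM in knockout PBS hearts, so that replicates 1 and 3 stood above replicate 2. Both calls were lost without knockout PBS replicate 1 (Synpo2l 1.005 ± 0.25, adjusted p = 0.217, and Bag3 -0.63 ± 0.23, adjusted p = 0.351), without replicate 3 and without the 4 libraries with high Myh7 (Synpo2l 1.34 ± 0.28 and Bag3 -0.28 ± 0.33). Without those 4 the difference of Synpo2l was larger than with all libraries, and that of Bag3 was smaller in size. The call of Synpo2l was also lost without knockout PBS replicate 2 (0.71 ± 0.25, adjusted p = 0.0539). With Xist as covariate it was lost as well (0.54 ± 0.18, adjusted p = 0.0633), while Bag3 was called in both fits. Of 18 transcription factors of cardiac muscle, 0 were called in any comparison by edgeR, with 6 at an unadjusted p under 0.05 after LCWE in the knockout, beside 23.4% of all genes, and 7 for knockout against wild type under PBS, beside 19.7%. Their median was -0.29 in the first and 0.28 in the second, beside 0.01 and 0.00 for all genes, and these comparisons share the knockout PBS libraries.

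Markers of other cell types were present in every group, with no list at 0. Skeletal muscle markers (15 genes) summed to 41.3 to 437 CPM in wild-type PBS, 40.5 to 382 in knockout PBS, 32.7 to 441 in wild-type LCWE and 40.2 to 486 in knockout LCWE hearts. Myh4, the fast skeletal myosin, lay between 75.5 and 137.2 CPM in 14 libraries and between 1.65 and 2.86 CPM in the other 5, at least 1 in each group. Atrial markers (6 genes) summed to 356 to 621, 535 to 900, 246 to 974 and 377 to 1531 CPM in the same order, and Myl7, the atrial light chain, reached 28.5 CPM in knockout PBS replicate 2 and 82.6 and 40.8 CPM in knockout LCWE replicates 2 and 4. Leukocyte markers (9 genes) summed to 80.8 to 112, 56.3 to 118, 110 to 221 and 139 to 327 CPM. Of the 8 tested, 3, Ptprc, Itgam and Mrc1, rose after LCWE in the knockout, where Actc1 was called, beside 2.9% of all genes. All 8 lay above 0 there (median 1.37), and 7 had an unadjusted p under 0.05 by edgeR, beside 23.4%. In wild type LCWE gave 0 calls among them. All 8 lay above 0 there too (median 0.61), and 5 had an unadjusted p under 0.05, beside 6.24%. Fibroblast markers (6 genes) summed to 948 to 1552, 899 to 1200, 976 to 2046 and 1112 to 2008 CPM. After LCWE in the knockout 4 of the 6 lay above 0 and 2 below, and 1 of them, Dpt, rose. The calls of Ptprc, Itgam, Mrc1 and Dpt were lost without knockout PBS replicate 1 or 3 and without the 4 libraries with high Myh7. Without the 4, Ptprc was 0.70 ± 0.32, Itgam 0.19 ± 0.35, Mrc1 0.59 ± 0.31 and Dpt 0.50 ± 0.25. Of the skeletal muscle, atrial, smooth muscle, endothelial, liver and adipocyte markers none was called in any comparison. Only 1 of the 5 adipocyte markers was tested. The 5 tested atrial markers all lay above 0 for knockout against wild type under both treatments. Under LCWE all 5 had an unadjusted p under 0.05 by edgeR, beside 5.55% of all genes, and their median log2 fold change was 2.72. Under PBS 3 of the 5 did, beside 19.7%, and the median was 2.71. These differences were not shared by all knockout libraries. Myl4, Myl7 and Sln were highest in knockout PBS replicate 2 and knockout LCWE replicates 2 and 4. In the remaining knockout libraries Myl7 lay between 0.210 and 1.005 CPM, within the wild-type range of 0.157 to 7.58 CPM. The part of these markers in the result on Actc1 was not tested.

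On GRCm38, 6 of the 30 lie on chromosome 2 with Mcm8, where Actc1 (chr2:114047282-114053548) is 18.76 Mb away, Myh7b 22.77 Mb, Mybpc3 (chr2:91118144-91136516) 41.68 Mb, Ttn 55.83 Mb, Xirp2 65.29 Mb and Nebl 115.08 Mb. Another annotated gene overlaps 16 of the 30, and whether strand was used in counting is not given in the sources used here. Of these partners, Nisch, which overlaps Tnnc1, lay between 292 and 524 CPM, Trpc4ap, which overlaps Myh7b, between 140 and 222 CPM, and Pth1r, which overlaps Myl3, between 11.7 and 55.0 CPM. A530058N18Rik, which overlaps Actc1, had no count in any library. Reads from the shared stretch of such a pair cannot be told apart if strand was not used.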

How the data were processed

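RNA of mouse heart was reverse transcribed, preamplified and made into libraries with a whole transcriptome amplification kit, per the labels' protocols. The authors deposited raw counts per gene symbol for all 19 libraries, and 0 columns of the table belonged to other samples. The submitters' processing notes name STAR 2.7.8a, limma and the build GRCm38 with no roles, and no source used here gives the counting program, the annotation or the use of strand. Groups came from the genotype and treatment labels. The 30 genes and the other gene lists were chosen with earlier results of these data known.

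Counts were filtered with filterByExpr (minimum count 10, minimum total 15), scaled with TMM factors and fitted in 1 model of the 4 groups over all 19 libraries with edgeR 4.0.16 in R 4.3.3 (robust quasi-likelihood test, Benjamini-Hochberg over 14301 genes, threshold 0.05). The fit has no replicate block. Alternatives were no filter, a filter of 5 CPM in 3 libraries, RLE factors, library totals, TMM factors without the 30 genes, a fit that was not robust, DESeq2 1.42.0, limma-voom 3.58.1 with and without library weights, the sample-number range or the number of genes detected as covariate, only the groups compared, and each library left out. The fits without the 4 libraries with high Myh7, without the 3 with high Rn45s, within 1 range of sample numbers and with Xist as covariate were chosen after seeing the data. Of the 30, genes called in any comparison were given in every sample, and otherwise the 3 with the lowest p of either sign were given as values. Troponin shares were compared with exact permutation tests. Lengths and positions came from GENCODE M21, which matched 24366 of the symbols. The fitting code was tested on simulated data. No 2 libraries held the same counts: over 13492 genes library pairs of a group had a chi-square per gene of at least 7.69, and other pairs one of at least 7.12.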

Additional observations from a re-analysis of the deposited data

Results flagged for a closer look

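A single library stood far from the rest of its group in 10 of the 90 combinations of gene and group with 4 to 10 libraries (Dixon's test). Chance alone flags about 1 in 20 groups. Knockout LCWE replicate 4, one of the 4 libraries with high Myh7, was the highest of its group for Mybpc3 (8192 CPM, the others 6137 to 6499), Des (4019 CPM, the others 2379 to 2831) and Myot (39.5 CPM, the others 9.30 to 13.3). Replicate 3 of the same group was the highest for Myl2 (11226 CPM, the others 8844 to 9534) and Tnni3 (6330 CPM, the others 5251 to 5415). Replicate 5 was the lowest for Xirp2 (219.8 CPM, the others 334 to 349).

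In wild-type PBS hearts, replicate 5 was the highest for Tcap (1563 CPM, the others 754 to 948) and Myh7b (507 CPM, the others 310.4 to 351), and replicate 1 for Ckm (1918 CPM, the others 1741 to 1785). In wild-type LCWE hearts, replicate 3 was the highest for Tnni1 (6.97 CPM, the others 0.478 to 1.62), a gene at few counts in every library.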

How the results depend on the processing

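The count of called genes among the 30 after LCWE in the knockout, 1 as reported, was 0 with no filter (beside 1.42% of all genes called), library totals (1.6%), limma-voom (0.79%), genes detected as covariate (0.357%), only the groups compared (0%) and without the 4 libraries with high Myh7 (0.0135%). It was 2, Actc1 and Mybpc3, with the stricter filter (3.32%), with DESeq2 (8.99%) and without the 3 libraries with high Rn45s (6.59%), 3 with library weights (Myl2 besides, 9.89%) and 14 within sample numbers 100 to under 200 (27.1%). With the number range (0.811%) or Xist (9.23%) as covariate it stayed 1, with Mybpc3 in place of Actc1. For knockout against wild type under PBS the count of 0 became 1 with DESeq2 (5.19%), library weights (5.24%) and the number range as covariate (3.66%), and 14 within the 1 range (27%). That range gave 3 after LCWE in wild type (8.28%) and 9 for the interaction (15.1%). Leaving out 1 library at a time gave 0 to 7 after LCWE in the knockout, 0 to 10 for knockout against wild type under PBS and 0 to 0 in the other 3 comparisons.

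Without the 4 libraries with high Myh7 signs turned for Pdlim5 (0.25 after LCWE in the knockout, -0.18 against wild type under PBS, 0.27 for the interaction), Xirp1 (-0.0854 under PBS), Des (-0.0225 under PBS, -0.0551 under LCWE) and Myom2 (-0.0418 under LCWE). Without the 3 with high Rn45s, Ttn (0.0789) and Myom1 (0.0346) turned after LCWE in wild type. Des under LCWE was also -0.0307 with library weights. With 1 library left out, Des under LCWE ran from -0.00321 to 0.22. The differences of the Tnni1 share between genotypes under PBS ran from -0.00258 to 0.0214, those of the Tnnt1 share after LCWE in wild type from -0.0253 to 0.00128 and those between genotypes under LCWE from -0.0102 to 0.0360. The causes were not tested. The median of the 30 lay on both sides of 0 over the settings in each comparison, from -0.00428 to 0.13 after LCWE in the knockout and from -0.12 to 0.03 for knockout against wild type under PBS.

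All genes called ranged over the settings from 0 to 4001 after LCWE in the knockout and from 0 to 3985 for knockout against wild type under PBS. No paired analysis was possible because the replicate numbers were given in accession order and pair no samples. With 3 knockout PBS libraries, of which 2 had high Myh7, each comparison that uses them rests on few libraries. Counts were not limiting for these genes, apart from Tnni1.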
